A study of Mus musculus with 12 samples.

Results

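The genes described here are 10 markers of primitive and visceral endoderm, chosen by name: the transcription factors Gata4, Gata6, Sox17 and Sox7, the endocytosis genes Dab2, Amn and Cubn, the transcriptional coactivator Cited1, and the secreted proteins Afp and Ttr. They were found by exact gene symbol in the platform annotation of a mouse expression array, where all 10 had probe sets, 26 in all, among 18193 named genes and 45037 probe sets. A gene is read from its brightest probe set by mean log2 signal over all arrays, with a cross-hybridising set (suffix _x_at) used only where there is no other, and its further probe sets serve as a check. For Sox17 and Ttr the brightest set of all is a cross-hybridising one, and its values are given too.

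The arrays measured D3 cells, a mouse embryonic stem cell line, after 7 days in medium with 15% serum. There were 12 arrays, 3 for each of 4 conditions: no LIF with lithium (LIF-free plus lithium), no LIF (LIF-free), LIF with lithium (LIF plus lithium) and LIF alone. LIF was given at 1000 units per ml, and the labels give lithium as 50 nM, while millimolar levels are usual. All arrays come from 1 cell line, and the arrays of a condition are numbered as biological replicates. The design text mentions independent experiments behind each replicate without saying how they were combined, so p values measure the spread between these samples.

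Primitive endoderm is the layer that separates from the epiblast in the blastocyst and then forms the visceral and parietal endoderm of the yolk sac. Gata6, Gata4, Sox17 and Sox7 set up the layer, and embryonic stem cells that lose their pluripotent state, or are forced to express Gata6 or Gata4, can turn on this programme. Visceral endoderm takes up maternal proteins through the receptor pair of cubilin (Cubn) and amnionless (Amn), helped by the adaptor Dab2, and secretes serum proteins such as alpha-fetoprotein (Afp) and transthyretin (Ttr).

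The 10 genes did not move as a group when LIF was withdrawn. Over cells with and without lithium together, Cited1, Ttr and Sox17 were called higher without LIF and Amn lower. Among all tested probe sets 13.9% were called higher and 10.8% lower. Taken alone, neither withdrawal gave a call for Sox17, and withdrawal without lithium gave none for Ttr. Ttr was bright enough to be tested only through its LIF-free arrays. The factors Gata4, Gata6 and Sox7 and the endocytosis genes Dab2 and Cubn did not pass the test, and Afp was not bright enough to be tested. Lithium against no lithium gave no call in any of the genes.

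Signals are MAS5 values in arbitrary units, scaled by the authors to a trimmed mean of 100 on every array. Tests were run on the 27022 probe sets whose average log2 signal exceeded the 40th percentile, equal to 7.52 signal units. These hold 16 of the 26 probe sets of these genes, and 9 of the 10 genes. Median signal per array ran from 10.5 to 19.3. The cells bore out their label: the stem cell genes Pou5f1, Nanog, Sox2 and Zfp42 had mean signals of 748, 815, 1351 and 1153 in LIF-free plus lithium arrays and of 2281, 1615, 2767 and 2914 in LIF arrays. Of 10 pluripotency genes measured, 0 rose and 9 fell over both withdrawals together, where 13.9% of all tested probe sets were called higher and 10.8% lower. The 3 prime to 5 prime signal ratio of Gapdh, a sign of RNA quality, ran from 0.739 to 0.802 on LIF-free arrays and from 0.798 to 0.860 on LIF arrays, with and without lithium in both cases. The 18S signal ran from 374 to 1632 and from 86.0 to 1364 on the same arrays. The part of these measures in the results below was not tested. In bulk RNA, fewer cells of a type and less RNA per cell cannot be told apart.

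The promoter windows of the genes are shown for Cited1 and Amn, whose LIF-free and LIF arrays separated without overlap in opposite directions, and for the receptor partner Cubn and the adaptor Dab2, which did not pass. Each holds 250 bases before the annotated start and 50 after it, 5′ to 3′ on the gene's strand, from RefSeq on GRCm38.p6. Capitals mark matches on either strand: to the STAT letters TTCNNNGAA, to AGATAA, which GATA factors bind, or to the TCF letters CTTTGA, and no matches overlap in these windows. Cited1 has 3 annotated starts and Dab2 has 2, of which the most upstream are shown.
Cited1 (chrX:102252132-102252431, minus strand): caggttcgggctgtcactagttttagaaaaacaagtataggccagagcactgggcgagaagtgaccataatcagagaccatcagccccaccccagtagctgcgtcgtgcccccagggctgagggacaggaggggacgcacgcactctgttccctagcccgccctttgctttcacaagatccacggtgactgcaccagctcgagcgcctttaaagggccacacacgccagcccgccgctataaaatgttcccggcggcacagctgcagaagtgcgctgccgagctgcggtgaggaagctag
Amn (chr12:111270846-111271145, plus strand): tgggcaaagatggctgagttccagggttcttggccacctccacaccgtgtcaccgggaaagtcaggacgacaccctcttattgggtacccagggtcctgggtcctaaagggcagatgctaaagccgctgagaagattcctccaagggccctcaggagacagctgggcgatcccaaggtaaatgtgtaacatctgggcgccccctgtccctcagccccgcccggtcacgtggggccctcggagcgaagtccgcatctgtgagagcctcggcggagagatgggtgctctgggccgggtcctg
Cubn (chr2:13491827-13492126, minus strand): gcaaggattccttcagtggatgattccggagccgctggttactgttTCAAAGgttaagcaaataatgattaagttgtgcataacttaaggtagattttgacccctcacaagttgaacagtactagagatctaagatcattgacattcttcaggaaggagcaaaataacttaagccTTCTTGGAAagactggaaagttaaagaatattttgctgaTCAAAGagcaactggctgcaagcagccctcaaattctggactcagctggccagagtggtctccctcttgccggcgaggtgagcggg
Dab2 (chr15:6299539-6299838, plus strand): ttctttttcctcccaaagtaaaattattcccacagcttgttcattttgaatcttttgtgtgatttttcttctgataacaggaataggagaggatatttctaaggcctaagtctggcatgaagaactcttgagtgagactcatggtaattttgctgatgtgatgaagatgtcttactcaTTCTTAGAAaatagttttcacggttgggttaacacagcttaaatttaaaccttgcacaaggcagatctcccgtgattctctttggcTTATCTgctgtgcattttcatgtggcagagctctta
The Cubn window held 1 STAT match, 75 to 67 bases before the start, and 2 TCF matches. The Dab2 window shown held 1 STAT match, 72 to 64 bases before the start, and 1 GATA match just after it. The window of the other Dab2 start held no match. Neither the Cited1 nor the Amn window held any of these letters. Among all 32851 windows of the same length, 8.30% held the STAT letters, 11.2% the GATA letters and 16% the TCF letters. A match is a description of the sequence, and none of these factors was measured on DNA here.

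LIF withdrawal was compared in cells without lithium, in cells with lithium, and over both together (6 arrays against 6), in one limma fit across all kept probe sets with Benjamini-Hochberg adjustment. Over both together 3 of the 9 tested genes were called higher, 1 was called lower and 5 did not pass. In the withdrawal without lithium 1 gene was called higher and 1 lower, against 5.4% and 3.91% of all tested probe sets (together 9.31%), and with lithium 2 and 1, against 7.53% and 4.93% (together 12.5%). Over both, among all tested probe sets, 13.9% were called higher and 10.8% lower, together 24.7%. The median log2 change of the 9 genes was 0.40, between -1.33 and 2.29, against a median of 0.02 over all tested probe sets. All 6 LIF-free arrays lay on one side of all 6 LIF arrays for 1 gene that was higher and 1 that was lower, where 8.22% of all tested probe sets were so separated upwards and 5.91% downwards. In the withdrawal without lithium the 3 arrays of each group did not overlap for 3 genes that were higher and 1 that was lower, against 13.8% and 13.7% of all tested probe sets. With lithium they did not overlap for 3 that were higher and 2 that were lower, against 19.9% and 13.5%.

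Cited1 binds CBP and p300 and coactivates SMAD and TFAP2 factors, and in the embryo it marks visceral endoderm and trophoblast among other tissues. Its signals were 264, 289 and 226 in LIF-free plus lithium arrays, 299, 348 and 226 in LIF-free arrays, 71.8, 57.7 and 39.5 in LIF plus lithium arrays, and 90.8, 52.2 and 52.3 in LIF arrays. Every LIF-free array lay above every LIF array, with lithium or without it. The log2 change was 2.22 ± 0.19 (SE) over both withdrawals (limma adjusted p = 1.85e-05, higher in 6 of 6 arrays), 2.19 without lithium (adjusted p = 0.00122) and 2.24 with lithium (adjusted p = 0.000675). The 4 conditions fell into a high pair and a low pair, and within neither pair did they differ beyond their spread.

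Ttr, the thyroxine and retinol carrier that visceral endoderm and later liver secrete, was dim. Its signals were 38.0, 34.5 and 9.74 in LIF-free plus lithium arrays, 26.5, 20.2 and 13.3 in LIF-free arrays, 5.53, 4.50 and 1.18 in LIF plus lithium arrays, and 9.89, 6.71 and 3.42 in LIF arrays. The groups did not overlap in either withdrawal taken alone, but the LIF-free plus lithium array of replicate 3 lay just under the highest LIF array. The log2 change was 2.29 ± 0.51 over both withdrawals (limma adjusted p = 0.00527) and 2.92 ± 0.71 with lithium (adjusted p = 0.019). Without lithium it was 1.66 and did not pass (adjusted p = 0.172), while blocking on replicate number gave adjusted p = 0.0248, in a fit that called 19.5% of all tested probe sets. The call with lithium ended without LIF plus lithium replicate 3 (adjusted p = 0.0819), LIF-free plus lithium replicate 1 (adjusted p = 0.0892) or LIF-free plus lithium replicate 2 (adjusted p = 0.0861). Ttr passed the filter only through its LIF-free arrays, the side where it is high. Its mean of log2 equalled 23.4 signal units in LIF-free plus lithium and 19.2 in LIF-free arrays. In LIF and LIF plus lithium arrays it equalled 6.10 and 3.09, under the filter's 7.52. With LIF, 5 of the 6 signals were under 7.52, so the size of the change rests on values near background. The change was 0.86 over both withdrawals with 16 signal units added before the log.

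A cross-hybridising Ttr set, the brightest of the 4, had signals of 63.8, 46.8 and 15.5 in LIF-free plus lithium arrays, 41.9, 38.9 and 34.2 in LIF-free arrays, 3.67, 2.72 and 4.45 in LIF plus lithium arrays, and 35.5, 0.777 and 0.309 in LIF arrays. Here LIF replicate 1 stood with the LIF-free arrays, and LIF replicates 2 and 3 were under the floor of 1. This set too passed the filter through its LIF-free arrays, as its LIF and LIF plus lithium means of log2 lay under it. Its log2 change was 3.44 ± 0.76 over both withdrawals (limma adjusted p = 0.00536). Fitted without a replicate block it passed in neither withdrawal alone (adjusted p = 0.0565 without lithium and adjusted p = 0.0603 with lithium), and with the block it passed without lithium (adjusted p = 0.0126).

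**Figure D1:**
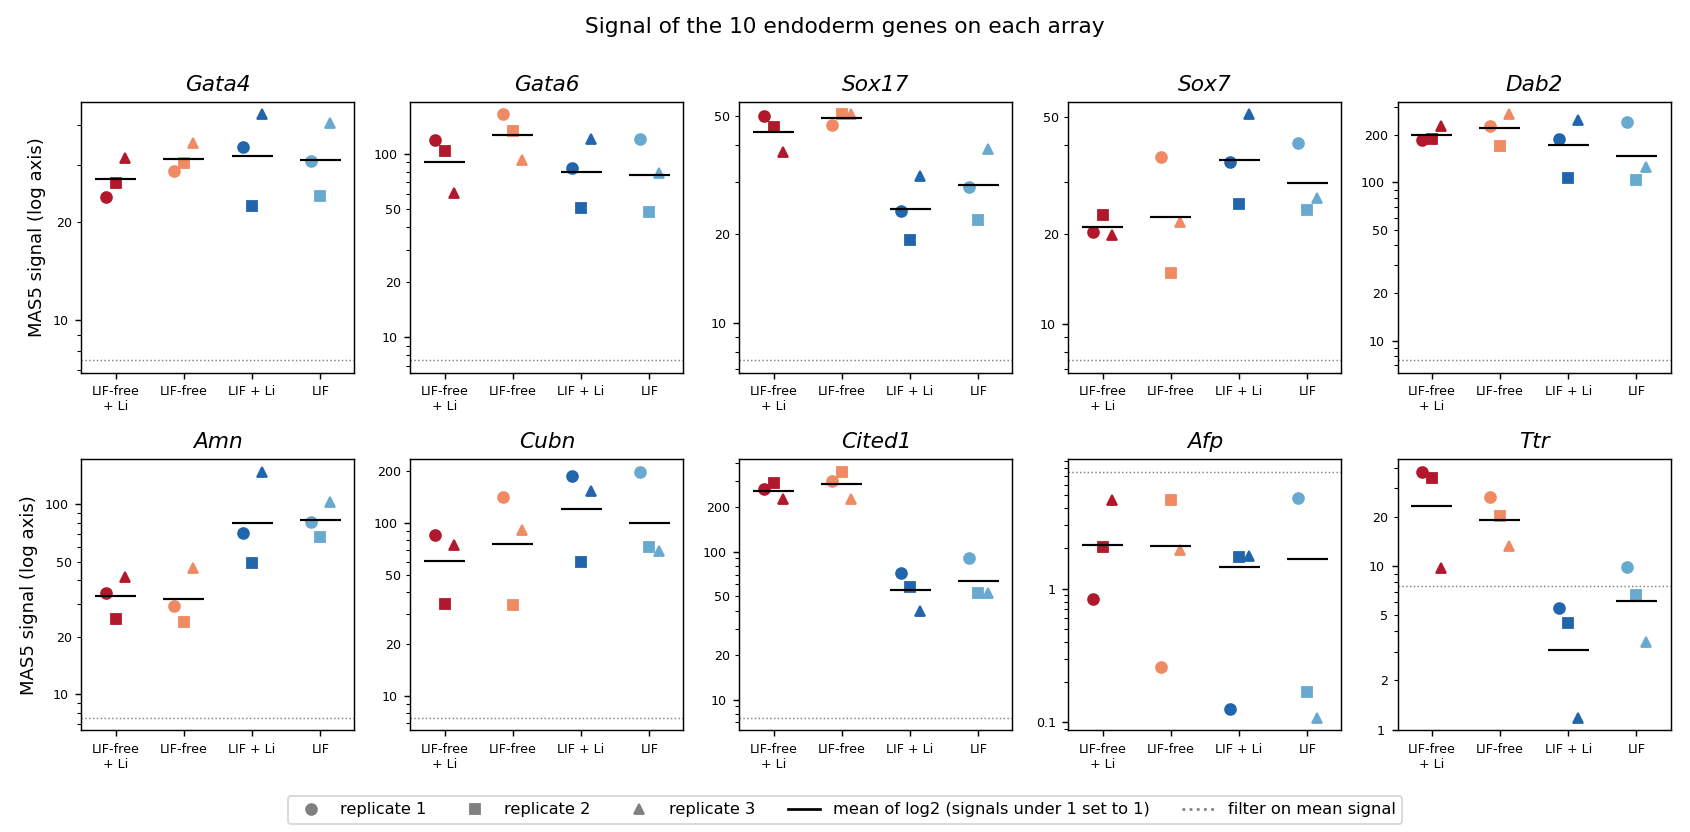
MAS5 signal of the 10 genes on each of the 12 arrays (log axis, 1 panel per gene), with 3 replicates and the mean of log2 per condition; the dotted line is the filter's mean signal of 7.52. Cited1 and Amn separate the LIF-free from the LIF arrays without overlap, in opposite directions. The LIF-free and LIF arrays of Gata4, Gata6, Sox17, Sox7, Dab2, Cubn and Ttr overlap when arrays with and without lithium are pooled. Afp lies under the line on every array.

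Sox17, an HMG-box factor of primitive and definitive endoderm and of endothelium, had signals of 50.0, 46.0 and 37.8 in LIF-free plus lithium arrays, 46.5, 50.9 and 50.8 in LIF-free arrays, 23.9, 19.1 and 31.4 in LIF plus lithium arrays, and 28.9, 22.3 and 38.8 in LIF arrays. The groups did not overlap in either withdrawal alone, but LIF-free plus lithium replicate 3 (37.8) lay under LIF replicate 3 (38.8). The log2 change was 0.81 ± 0.19 over both (limma adjusted p = 0.00823). It was 0.75 without lithium (adjusted p = 0.103) and 0.87 with lithium (adjusted p = 0.0555), neither past the threshold. With lithium it passed under the 60th percentile filter (adjusted p = 0.0424), with no intensity trend (adjusted p = 0.0477), with array weights (adjusted p = 0.0061) and without LIF replicate 3 (adjusted p = 0.0347). Array weights called 6887 of all 27022 probe sets in that comparison, where the main fit called 3368. The brighter cross-hybridising set gave 338, 280.3 and 191 in LIF-free plus lithium arrays, 411, 303 and 250.3 in LIF-free arrays, 134, 73.2 and 179 in LIF plus lithium arrays, and 240.5, 66.1 and 49.3 in LIF arrays. It changed by 1.45 ± 0.35 over both withdrawals (limma adjusted p = 0.00853), by 1.77 without lithium (adjusted p = 0.0394) and by 1.12 with lithium (adjusted p = 0.161), so both sets were called higher over both withdrawals and LIF replicate 1 was again the highest of the LIF arrays.

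Gata6 and Gata4 are the zinc-finger factors that start and maintain the primitive endoderm programme. Gata6 signals were 118, 103 and 60.8 in LIF-free plus lithium arrays, 165, 133 and 92.7 in LIF-free arrays, 84.1, 50.7 and 119.7 in LIF plus lithium arrays, and 120.4, 48.3 and 78.1 in LIF arrays. The groups overlapped in every comparison. The log2 change over both withdrawals was 0.45, with a 95% interval from -0.14 to 1.04 (limma adjusted p = 0.267), and array weights brought it past the threshold (0.89, adjusted p = 0.00739). Array weights called 10859 of all 27022 probe sets in that comparison, where the main fit called 6678.

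Gata4 signals were 23.9, 26.4 and 31.5 in LIF-free plus lithium arrays, 28.9, 30.4 and 35.01 in LIF-free arrays, 34.2, 22.4 and 43.1 in LIF plus lithium arrays, and 30.8, 24.1 and 40.6 in LIF arrays. All 12 arrays lay between 22.4 and 43.1, and the groups overlapped. The log2 change over both withdrawals was -0.12, with a 95% interval from -0.58 to 0.34 (limma adjusted p = 0.754). The further kept sets of Gata6 (0.08) and Gata4 (-0.37) did not pass over both withdrawals either.

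Sox7, the close relative of Sox17, had signals of 20.3, 23.3 and 19.9 in LIF-free plus lithium arrays, 36.6, 14.8 and 22.0 in LIF-free arrays, 35.2, 25.4 and 51.1 in LIF plus lithium arrays, and 40.9, 24.2 and 26.6 in LIF arrays. With lithium the groups did not overlap, the LIF-free arrays being lower. The log2 change over both withdrawals was -0.57, with a 95% interval from -1.14 to 0.00 (limma adjusted p = 0.141), opposite in sign to that of Sox17. The difference between the changes of Sox7 and Sox17 was not tested.

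Amnionless anchors cubilin in the membrane and brings it to the cell surface. Amn signals were 34.3, 25.1 and 41.5 in LIF-free plus lithium arrays, 29.2, 23.9 and 46.1 in LIF-free arrays, 70.7, 49.1 and 149 in LIF plus lithium arrays, and 80.6, 67.2 and 103 in LIF arrays. Every LIF-free array lay below every LIF array. The log2 change was -1.33 ± 0.27 over both withdrawals (limma adjusted p = 0.00316, lower in 6 of 6 arrays), -1.37 without lithium (adjusted p = 0.0399) and -1.29 with lithium (adjusted p = 0.0439). Amn has 1 probe set here.

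The call over both withdrawals held with any 1 array left out (adjusted p from 0.0021 to 0.0109), while the calls of each withdrawal did not. Without lithium the Amn call ended when LIF replicate 1, 2 or 3, or LIF-free replicate 1 or 2, was left out (highest adjusted p = 0.15). With lithium it ended when LIF plus lithium replicate 1 or 3, LIF-free plus lithium replicate 1 or 2, LIF replicate 2, or LIF-free replicate 1 or 2 was left out (highest adjusted p = 0.195).

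Cubilin is the large extracellular receptor that Amn carries. Cubn signals were 85.0, 34.1 and 75.2 in LIF-free plus lithium arrays, 141, 33.6 and 91.4 in LIF-free arrays, 188, 59.7 and 154 in LIF plus lithium arrays, and 199, 73.3 and 69.0 in LIF arrays. The groups overlapped in both withdrawals. The log2 change over both withdrawals was -0.70, with a 95% interval from -1.59 to 0.19 (limma adjusted p = 0.256), and -0.40 in a second probe set (adjusted p = 0.545).

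Dab2, the clathrin adaptor that binds the tails of these receptors, had signals of 186, 187 and 229 in LIF-free plus lithium arrays, 229, 171 and 272 in LIF-free arrays, 188, 108 and 249.8 in LIF plus lithium arrays, and 241, 104 and 125 in LIF arrays. The groups overlapped, with LIF replicate 1 among the high LIF-free values. The log2 change over both withdrawals was 0.40, with a 95% interval from -0.10 to 0.91 (limma adjusted p = 0.244), and it passed without LIF replicate 1 (0.58, adjusted p = 0.0484). Of the 3 kept Dab2 sets, 2 had positive changes and 1 a negative one (-0.16).

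Afp, the main serum protein of the embryo, made by visceral endoderm and then by liver, had signals from 0.836 to 4.63 in LIF-free plus lithium arrays, from 0.262 to 4.63 in LIF-free arrays, from 0.126 to 1.75 in LIF plus lithium arrays, and from 0.108 to 4.73 in LIF arrays. None of its 5 probe sets exceeded 6.97 on any array or passed the filter, so no change is given.

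**Figure D2:**
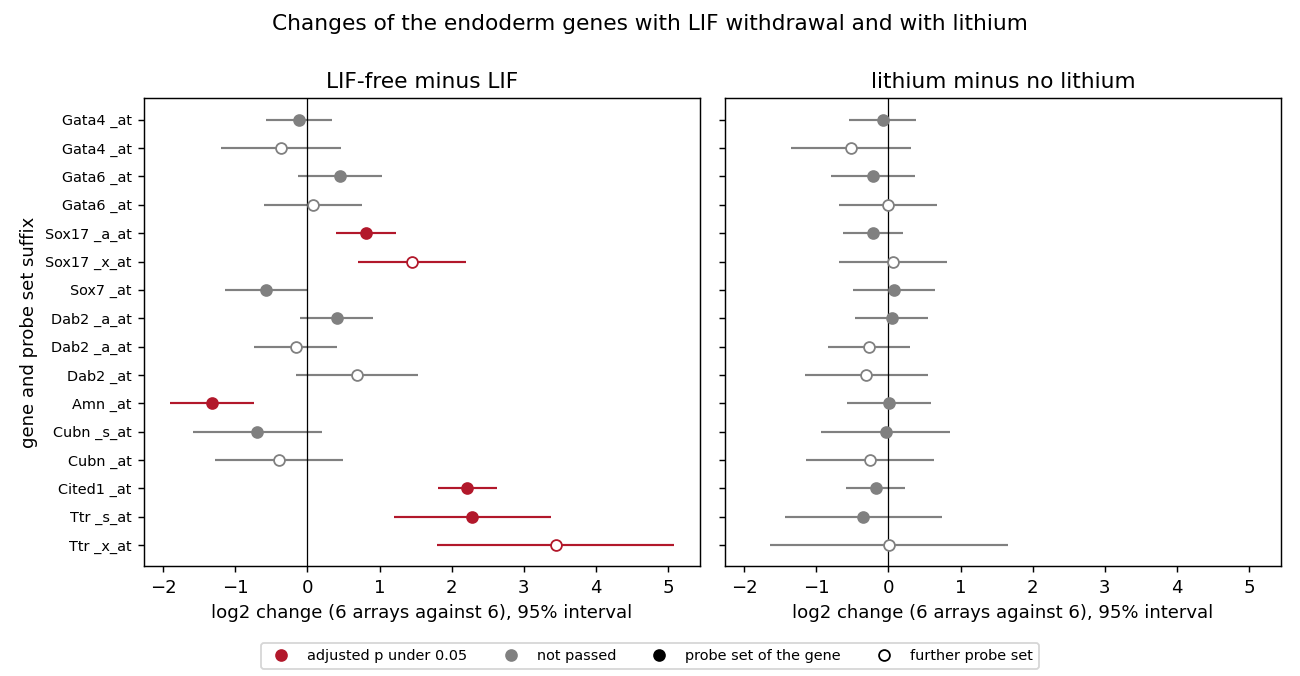
Log2 change (x axis) with 95% interval of the 16 kept probe sets of the 9 tested genes, for LIF-free minus LIF (left) and lithium minus no lithium (right), each over 6 arrays against 6; red marks an adjusted p under 0.05. On the left, the sets of Sox17, Cited1 and Ttr lie right of 0 and that of Amn left of it; on the right, every interval crosses 0.

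Lithium was compared with no lithium in LIF cultures, in LIF-free cultures and over both. For the 9 tested genes 0 were called in each of these and 0 in the interaction, by limma, as were 0 of all tested probe sets (0%), and 0 of the 9 had an unadjusted p under 0.05 in any of them. The log2 changes lay from -0.98 to 0.27 with LIF and from -0.49 to 0.28 without it. The lowest with LIF was that of Ttr, whose signals there are near background. The intervals are wide: that of Cited1 over both ran from -0.58 to 0.23, of Amn from -0.58 to 0.59, of Gata6 from -0.80 to 0.37 and of Cubn from -0.93 to 0.86.

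Lithium in place of LIF, that is LIF-free plus lithium against LIF alone, shares its LIF arrays with the withdrawal without lithium. Of these 9 genes 1 was called higher and 1 lower, where 5.48% and 3.79% of all tested probe sets were, together 9.26%. Cited1 changed by 2.04 (limma adjusted p = 0.00141) and Amn by -1.32 (adjusted p = 0.047). The Amn call ended when any 1 array of LIF or of LIF-free plus lithium was left out, or LIF plus lithium replicate 1, or LIF-free replicate 1 or 2 (highest adjusted p = 0.169). 

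Part of the variation of these genes lay between replicates of one condition. In LIF cultures replicate 2 had the lowest signal of the 3 in 7 of the 9 tested genes, and in LIF plus lithium cultures again in 7 of 9, where 30.7% and 26.5% of all tested probe sets had their lowest signal in that replicate. In LIF-free plus lithium cultures replicate 2 was lowest in 2 of 9 and in LIF-free cultures in 4 of 9, against 24.8% and 28.6% of all tested probe sets. Replicate 3 was lowest in 5 of 9 in LIF-free plus lithium cultures, against 43.0%. Deviations from the condition means of Gata4 went with those of Amn (Pearson r = 0.83 over 12 arrays), those of Dab2 with those of Cubn (r = 0.78) and of Sox7 (r = 0.75), and those of Cited1 with those of Ttr (r = 0.79). Amn deviated against Ttr (r = -0.77) and Cited1 (r = -0.64). These are descriptions of arrays that share their scaling and their replicate numbers.

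**Figure D3:**
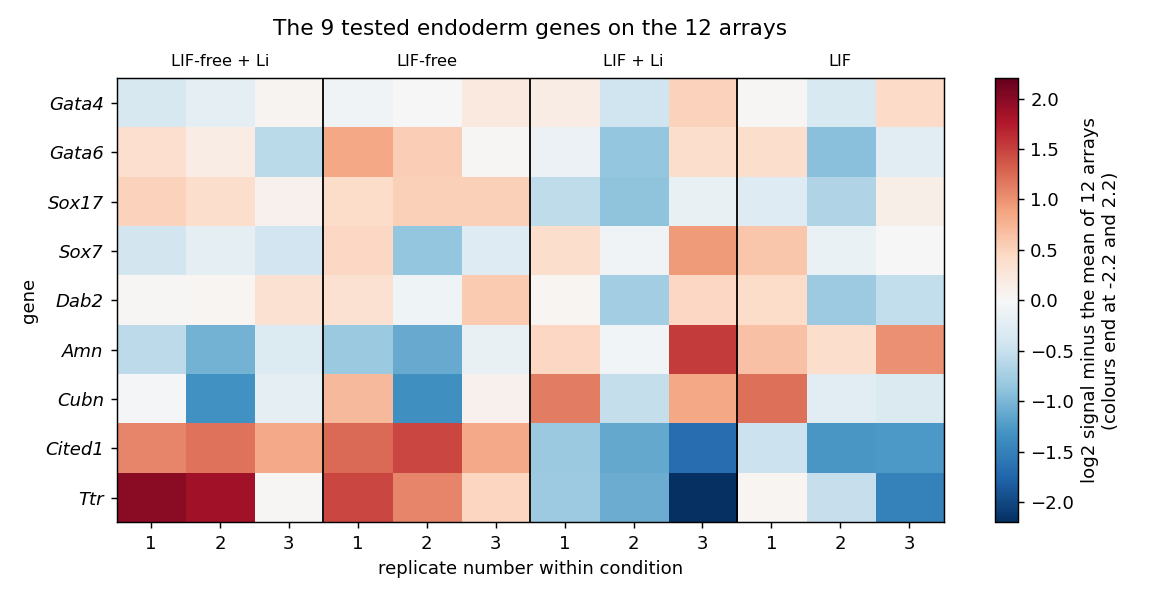
Log2 signal of the 9 tested genes (rows) on the 12 arrays (columns, by condition and replicate number), as the difference from the gene's mean over all arrays; red is higher and blue lower. Cited1 and Ttr are mostly red in the LIF-free columns and blue in the LIF columns, Amn shows the opposite, and Cubn is lowest in replicate 2 of both LIF-free conditions.

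Some genes followed these members closely over the 12 arrays, by Pearson r of log2 signal among 12728 other named genes. Cited1 was followed most closely by Cyp26a1, which breaks down retinoic acid (r = 0.99), and Ier5 (0.99), and Ttr by Snx30 (0.98) and Zfhx3 (0.97). The closest to Sox17 were Myl4, an atrial myosin light chain (0.97), and Inka1 (0.97), and to Amn they were Cox17, a copper chaperone of the respiratory chain (0.98), and Cenpw, a centromere protein (0.96). For the genes that did not pass, the closest were Bmper, a BMP-binding protein (0.91), and Sptssa (0.90) for Gata6, Dnajc15 (0.89) and G6pc3 (0.84) for Gata4, and Htra1 (0.93) and Panct2 (0.89) for Sox7. They were Mettl16 (0.92) and Klb (0.92) for Cubn, and Mthfd2l (0.91) and Xpa (0.87) for Dab2. With so many genes searched over 12 arrays of 4 conditions, these values are a description.

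Further genes of the pathway were read from lists, over both withdrawals together. The counts of each list stand beside 13.9% of all tested probe sets called higher and 10.8% called lower. Of 9 early primitive endoderm factors measured, 3 rose, 2 fell and 4 did not pass, with a median log2 change of 0.18. Bmp2, a ligand of visceral endoderm (3.50, limma adjusted p = 0.00022), and Foxa2, a forkhead factor of visceral and definitive endoderm (1.46, adjusted p = 0.00033), rose. Klf5, a factor of stem cells and trophectoderm (-1.18, adjusted p = 0.000499), and Hhex, a homeobox factor of the anterior visceral endoderm (-0.88, adjusted p = 0.00176), fell. Pdgfra, the PDGF receptor that marks primitive endoderm, did not pass (0.13, adjusted p = 0.823).

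FGF4 from the epiblast drives primitive endoderm through FGF receptors and ERK. Of 10 genes of this pathway measured, 1 rose, 4 fell and 5 did not pass, with a median log2 change of -0.01. The shares over all tested probe sets were 13.9% higher and 10.8% lower. Fgf4 averaged 135 ± 65.6 in LIF-free plus lithium arrays, 135 ± 46.7 in LIF-free arrays, 669 ± 196 in LIF plus lithium arrays and 589 ± 207 in LIF arrays (SD, n = 3 each), a log2 change of -2.28 (limma adjusted p = 0.000204). The ERK-induced genes Spry4 (-1.68, adjusted p = 6.18e-05) and Etv4 (-3.81, adjusted p = 0.000161) fell too, but not all such genes did. Dusp6 (-0.17, adjusted p = 0.473) and Spry2 (0.53, adjusted p = 0.0854), ERK-induced genes of the same list named after their values were seen, did not pass. Fgfr2, a receptor of primitive endoderm and trophectoderm, rose (1.36, adjusted p = 0.000433), and Fgfr1 did not pass (0.30, adjusted p = 0.285). Without LIF replicate 1 or LIF plus lithium replicate 1, 3 genes of this group were called higher.

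Of 10 genes of visceral endoderm endocytosis measured, 3 rose, 2 fell and 5 did not pass (median 0.12). The shares over all tested probe sets were 13.9% higher and 10.8% lower. Lrp2, the megalin receptor that works beside cubilin, averaged 279 ± 17.8 in LIF-free plus lithium arrays, 263 ± 101 in LIF-free arrays, 136 ± 96.3 in LIF plus lithium arrays and 132 ± 75.4 in LIF arrays, a log2 change of 1.21 (limma adjusted p = 0.0252), opposite in sign to Amn. The Lrp2 call ended with no intensity trend (adjusted p = 0.0553), as the mean over its probe sets (0.73, adjusted p = 0.0919), and without LIF replicate 3, LIF plus lithium replicate 2 or 3, LIF-free replicate 1 or LIF-free plus lithium replicate 2 (highest adjusted p = 0.061). Dab1, a neuronal relative of Dab2, fell (-1.54, adjusted p = 0.000383), but did not pass as the mean over its probe sets (-0.39, adjusted p = 0.31). The 3 genes called higher became 0 with no intensity trend, 1 with median centring and 1 with the mean over probe sets. No gene of this list was called higher (0 of 10) without LIF plus lithium replicate 2 or 3 or LIF-free replicate 1, and 1 was without LIF-free plus lithium replicate 2. Genes called lower numbered 1 without LIF replicate 2, LIF plus lithium replicate 3, LIF-free replicate 1, or LIF-free plus lithium replicate 1 or 2.

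Of the 22 visceral endoderm and yolk sac secretory genes listed, 19 had a probe set and 10 were bright enough to be tested. Among those, 2 rose, 1 fell and 7 missed the threshold (median log2 change -0.05), against 13.9% and 10.8% of all tested probe sets. Spink1, a protease inhibitor (1.82, limma adjusted p = 0.000106), and Foxa1, a forkhead factor (3.21, adjusted p = 0.00258), rose. Apoe, an apolipoprotein that many cell types make, fell (-0.68, adjusted p = 0.0204), a call that ended with median centring (adjusted p = 0.066), with no intensity trend (adjusted p = 0.0508), and without LIF-free replicate 2 (adjusted p = 0.0531) or LIF-free plus lithium replicate 1 (adjusted p = 0.0544). Hnf4a, the factor that drives serum protein genes in visceral endoderm, did not pass (-0.41, adjusted p = 0.566). Apoa1, Apob, Alb, Fga and Fgb, like Afp, were under the filter.

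Of 8 anterior visceral endoderm genes, 3 rose, 1 fell and 4 did not pass (median 0.32), where 13.9% and 10.8% of all tested probe sets rose and fell. Lhx1 (4.47, limma adjusted p = 0.000257), Dkk1 (2.50, adjusted p = 0.000134) and Cer1 (2.47, adjusted p = 0.00466), which node and definitive endoderm also express in part, rose. The sizes depended on the processing: the lowest change under an alternative was 1.71 for Lhx1, 2.04 for Dkk1 and 0.89 for Cer1. The calls held wherever these genes were tested. The gene that fell was Hhex, already counted as falling among the early primitive endoderm factors. Of 15 parietal endoderm and basement membrane genes, 8 rose, 2 fell and 5 did not pass (median 0.49). Krt19, a simple-epithelium keratin (1.81, adjusted p = 2.12e-05), Serpinh1, the collagen chaperone (1.05, adjusted p = 7e-05), and Sparc, a matrix protein (0.75, adjusted p = 0.000692), rose, although Sparc did not pass as the mean over its probe sets (0.40, adjusted p = 0.108). Lama1, the laminin chain of the first basement membranes, fell (-1.07, limma adjusted p = 0.00182). Genes of this list called lower numbered 1 without LIF replicate 2 or 3, LIF plus lithium replicate 2 or 3, or LIF-free replicate 1.

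Markers of other cells moved with LIF as well, and Cited1, Sox17 and Ttr are not made by extraembryonic endoderm alone. The shares over all tested probe sets were 13.9% called higher and 10.8% called lower. Of 8 trophoblast markers tested, 8 rose and 0 fell (median log2 change 1.23), and their summed signal ran from 1371 to 1754 on LIF-free arrays and from 606 to 881 on LIF arrays, with and without lithium in both cases. Of 9 definitive endoderm genes, 6 rose and 0 fell (median 1.21), with sums of 5103 to 5553 on LIF-free arrays and 3263 to 4373 on LIF arrays. The 6 include Foxa2 and Cer1, which were already counted as rising in the endoderm lists above. Of 7 fibroblast and feeder markers, 5 rose and 1 fell (sums of 1301 to 2505 on LIF-free arrays and 466 to 1109 on LIF arrays), and of 9 mesoderm and blood markers, 3 rose and 1 fell (264 to 381 on LIF-free arrays and 237 to 337 on LIF arrays). The fall in the fibroblast list was lost without 8 of the 12 single arrays, all but LIF replicate 1, LIF plus lithium replicate 2, LIF-free replicate 2 and LIF-free plus lithium replicate 3, and the definitive endoderm list had 1 gene called lower without LIF-free plus lithium replicate 2. Under the filter were Elf5 of the trophoblast list, Gsc and Nepn of the definitive endoderm list, Lum, Dcn and Fap of the fibroblast list, and Tal1 and Hba-x of the blood list. The part of such cells in the changes of Cited1, Sox17, Ttr and Amn was not tested.

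**Figure D4:**
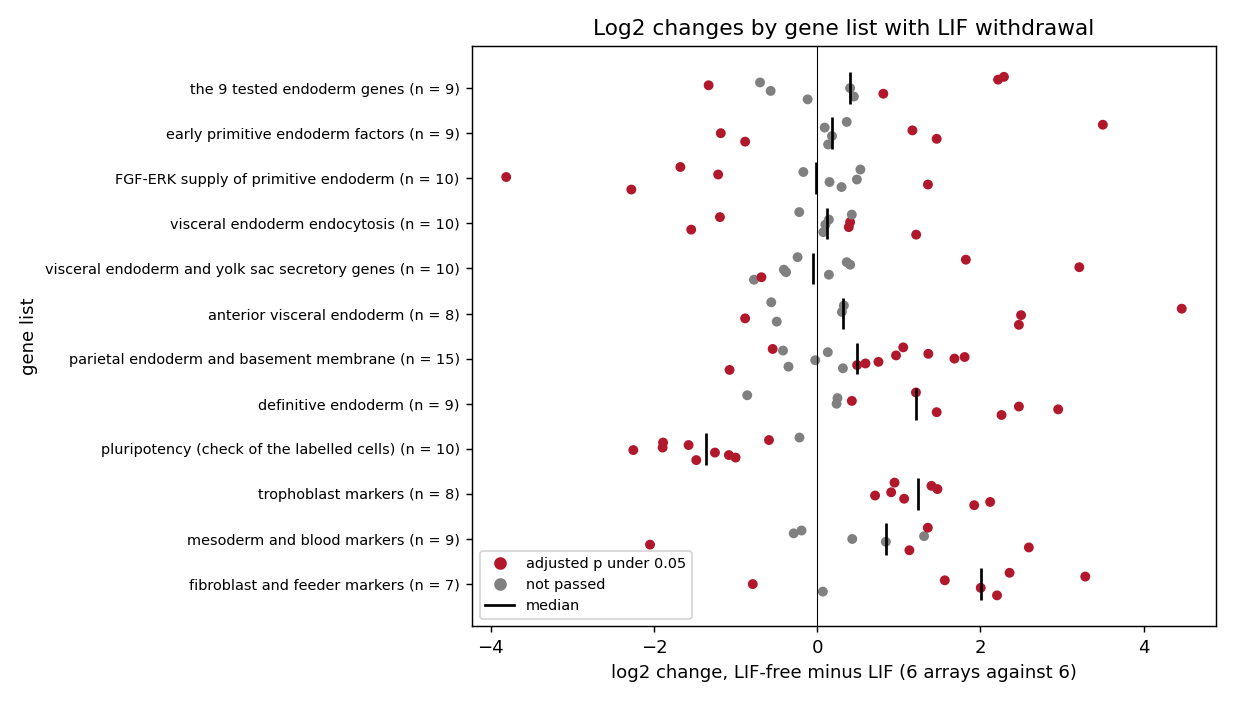
Log2 change of each tested gene (points, LIF-free minus LIF, 6 arrays against 6) by gene list, with the list's median as a bar; red marks an adjusted p under 0.05. The 9 endoderm genes spread from -1.33 to 2.29 around a median of 0.40, and the trophoblast markers all lie right of 0.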

How the data were processed

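Total RNA of 12 samples of D3 cells was hybridised to Affymetrix mouse arrays, per the labels. The authors deposited signal intensity for each probe set, linear and made with MAS5 per the submitters' processing notes, the version and settings of which are not given in the sources used here. Trimmed by 2% at either end, every array averaged 100. Of 45101 probe sets, 64 controls were dropped. Log2 was taken after raising values below 1 to 1. Symbols come from the platform annotation: 34945 probe sets have 1, 932 several and 9160 none. A current table matched 34741 by gene ID and changed 0.

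One limma fit (limma 3.58.1, R 4.3.3, eBayes with intensity trend, 8 residual degrees of freedom) had a mean per condition and 8 contrasts, tested two-sided, with Benjamini-Hochberg adjustment over 27022 probe sets and a threshold of 0.05. The fit was tested on simulated data. With 3 arrays against 3 a permutation test cannot give a two-sided p under 0.1. Plots used Python 3.11.15 and matplotlib 3.10.9. The number of arrays limits the precision.

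The genes, lists and alternatives were chosen with earlier results of these data known. All 10 genes are named whatever their values. Up to 4 genes past the threshold with the smallest p are named from the early factor, FGF, secretory, anterior visceral and parietal endoderm lists, beside a few fixed names. In the endocytosis list Ap2m1 and Cltc were also called higher and Fcgrt lower. No gene past the threshold is named from the trophoblast, mesoderm and fibroblast lists, and only Foxa2 and Cer1 are from the definitive endoderm list. For the tested genes, the closest genes by Pearson r are named.

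Residuals of arrays with equal replicate numbers in the labels were correlated. Conditions count as paired here where r was above 0.1 for all 3 numbers. This held between LIF-free and LIF (0.137 to 0.438), LIF plus lithium and LIF (0.139 to 0.499), and LIF-free plus lithium and LIF-free (0.111 to 0.462). It did not hold between LIF-free plus lithium and LIF plus lithium (0.0972 to 0.451) or LIF-free plus lithium and LIF (0.0317 to 0.385). The labels state no pairing, and 0.111 and 0.0972 lie close to the limit on either side.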

Additional observations from a re-analysis of the deposited data

How the results depend on the processing

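Over both withdrawals, Cited1, Sox17, Ttr and Amn kept their direction and their call under every alternative run and with any 1 array left out, except that Ttr lay below a filter at the 60th percentile and was not tested there. Counts of genes called higher and lower moved as follows. In withdrawal over both, 3 higher became 5 with array weights, and 1 lower became 2 with the replicate number as a block. Array weights called 10859 of all 27022 probe sets over both, 7870 without lithium, 6887 with lithium and 7454 for lithium in place of LIF. The main fit called 6678, 2515, 3368 and 2503 in the same order. In withdrawal without lithium, 1 higher became 2 with the replicate block, 2 with the mean over probe sets, 2 with the brightest set whatever its suffix (chosen after seeing the data) and 5 with array weights, and 1 lower became 0 with median centring, no filter or no intensity trend. In withdrawal with lithium, 2 higher became 1 with the brightest set and 3, with Sox17, under the replicate block (adjusted p = 0.0266), no intensity trend or array weights, and 1 lower became 2 with the replicate block and 0 with no filter, no intensity trend or only the compared groups. For lithium in place of LIF, 1 higher became 2 with the replicate block and 3 with array weights, and 1 lower became 0 with median centring, a pseudocount of 16, no filter or no intensity trend. The cause of these moves was not tested. With 1 array left out, genes called higher and lower ranged from 1 to 1 and 0 to 1 in withdrawal without lithium, 1 to 3 and 0 to 1 with lithium, 3 to 4 and 1 to 1 over both, and 1 to 1 and 0 to 1 for lithium in place of LIF. The block, in comparisons whose conditions do not all count as paired, brought Cubn past the threshold over both withdrawals (-0.70, adjusted p = 0.0101) and with lithium (-1.0, adjusted p = 0.0155), and with lithium also the cross-hybridising Ttr set (adjusted p = 0.015). The second Cubn set did not pass with the block over both (limma adjusted p = 0.142) or with lithium (adjusted p = 0.0909). The block raised the probe sets called without lithium to 5260 of 27022 (19.5%), where 2515 were called without the block. With lithium it called 5938, and for lithium in place of LIF 5073, where the main fit called 3368 and 2503. The block's count over both withdrawals is not given here, so the Cubn call there stands without a share over all tested probe sets. No lithium comparison or interaction had a call in these genes under any alternative run. Centring arrays on their medians took the array-wide median log2 change from -0.07 to 0.13 without lithium, from 0.11 to -0.23 with lithium and from 0.02 to -0.06 over both, and the share of calls that were higher from 58.0% to 83.1%, from 60.4% to 34.8% and from 56.1% to 54.9%. With the 60th percentile filter fewer genes were tested, and genes called higher numbered 1 of the anterior visceral endoderm list, 1 of the secretory list, 3 of definitive endoderm, 1 of mesoderm and blood and 1 of fibroblasts. Array weights gave 4 genes called higher in the FGF list. The fit to only the compared groups gives no value for both withdrawals together or the interaction. Signals near the filter limit what can be seen for Ttr and Afp.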
